A study of Homo sapiens with 16 samples.

Results

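TXNIP, the arrestin-domain genes ARRDC2, ARRDC3 and ARRDC4, and the transcription factor genes MLXIP and MLX were followed through RNA-seq libraries of quiescent U2OS cells, a human osteosarcoma line. These 6 genes, of 59081 in the count table, were taken by symbol, and all 6 passed the filter on low counts that left 20446 genes for testing. ARRDC4 was chosen by a measured value, its level in the DMSO libraries against that in the water libraries, so its values are given as a description with no p value, and for all 6 genes the comparison of DMSO with water is descriptive. Confluent cells were held without serum for 48 h, and for the last 24 h they received 10 µM harmine hydrochloride with water as its vehicle control, or 25 µM INDY with DMSO as its vehicle control. Each of the 4 groups has 4 libraries, and harmine and INDY do not share controls. Both compounds inhibit DYRK1A, the kinase whose activity favours assembly of the DREAM repressor complex, and the study used them to relieve DREAM repression. All libraries come from 1 established cell line, and the sources do not state whether replicates were separate cultures, so p values measure only the spread between these samples.

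TXNIP, the thioredoxin-interacting protein, and the ARRDC proteins are alpha-arrestins, relatives of the beta-arrestins that shut off signalling receptors. Alpha-arrestins work as adaptors that bring NEDD4-family ubiquitin ligases to membrane proteins and thereby promote their removal from the cell surface. TXNIP also binds thioredoxin and restrains glucose uptake through glucose carriers. When glucose enters the cell and is phosphorylated, MondoA, encoded by MLXIP, moves to the nucleus with its partner MLX and switches on TXNIP and ARRDC4 through carbohydrate response elements, which are pairs of E-box-like hexamers 5 bases apart.

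The promoters of TXNIP and ARRDC4 are shown because these 2 genes followed each other most closely among the 6. The 250 bases before the annotated start are written 5′ to 3′ on the gene's strand, from RefSeq on GRCh38.p14. Capitals mark matches on either strand to the E-box CACGTG, the CCAAT box (read as ATTGG where it lies on the other strand) and the paired hexamers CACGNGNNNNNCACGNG.
TXNIP promoter (chr1:145996580-145996829, minus strand): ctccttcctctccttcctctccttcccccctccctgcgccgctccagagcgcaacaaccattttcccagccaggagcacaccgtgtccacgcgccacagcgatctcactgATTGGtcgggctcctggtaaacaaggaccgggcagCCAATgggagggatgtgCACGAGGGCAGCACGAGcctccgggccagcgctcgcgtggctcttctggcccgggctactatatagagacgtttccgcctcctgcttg
ARRDC4 promoter (chr15:97960453-97960702, plus strand): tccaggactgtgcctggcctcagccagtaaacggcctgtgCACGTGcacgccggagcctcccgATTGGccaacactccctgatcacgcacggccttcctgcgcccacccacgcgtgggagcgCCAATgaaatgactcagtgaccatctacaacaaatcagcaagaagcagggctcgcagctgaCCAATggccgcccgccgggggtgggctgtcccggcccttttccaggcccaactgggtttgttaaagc
The TXNIP sequence holds the paired hexamers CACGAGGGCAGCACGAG at chromosome 1 positions 145996651 to 145996667, from base -88 to base -72 relative to the start. Among 35116 RefSeq promoter windows of 250 bases before and 50 after a start, the same-orientation pair occurred in 20 on either strand (0.057%), and the inverted pair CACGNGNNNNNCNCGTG occurred in 8 (0.0228%). No inverted pair was found for the 6 genes. ARRDC4 held no exact match to such a pair in its window, and pairs with a mismatch were not searched for. It did hold a full CACGTG at base -210, a hexamer found in 7.26% of all windows. MLX, whose own promoter was also searched, held CACGTG at base -50. CCAAT, present in 34.6% of all windows, was found at 3 places in ARRDC4, at 2 in TXNIP and at 1 each in ARRDC3, MLXIP, MLX and the second of 2 annotated starts of ARRDC2. These matches describe letters only, and the data hold no measurement of binding.

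On GRCh38 with the GENCODE 44 annotation, TXNIP spans chromosome 1 from 145992435 to 145996579 on the minus strand and ARRDC3 spans chromosome 5 from 91368631 to 91383317, also on the minus strand. ARRDC4 lies on chromosome 15 from 97960703 to 97973833, ARRDC2 on chromosome 19 from 18001132 to 18014102, MLXIP on chromosome 12 from 122078756 to 122147344 and MLX on chromosome 17 from 42567072 to 42573239, all on the plus strand. Levels are counts-per-million values (CPM), scaled by TMM factors. MLXIP was matched to the annotation by symbol, since its identifier in the count table differs, and whether its row covers the whole annotated gene was not tested, which also limits its level per kilobase. None of the 100-nt stretches of the 6 genes' transcripts occurred in another gene (0%).

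Libraries held 44301910 to 65889667 counts and 2.61 to 3.49% mitochondrial transcripts. Of the osteoblast and mesenchymal markers, VIM (1900 to 2890 CPM), SPARC (437 to 950), COL1A1 (106 to 160) and RUNX2 (19.4 to 51.2) were present, whereas IBSP was at 0 in 12 of 16 libraries and COL1A2 did not exceed 0.194 CPM. ALPL was at 2.68 to 22.8 CPM, SPP1 was low at 1.1 to 3.3 CPM and BGLAP did not exceed 0.34 CPM. KRT8 and KRT18 were at 220 to 389 CPM, while the epithelial markers EPCAM, KRT19 and CDH1 stayed at or under 4.06 CPM. Summed over the 9 osteoblast and mesenchymal markers, the level was 2760 to 2980 CPM with water and 3380 to 3470 with harmine. It was 3000 to 3220 CPM with DMSO and 3180 to 3580 with INDY, and VIM and SPARC made up most of it. The sum over the 5 blood markers was 0.388 to 0.447 CPM with water and 0.376 to 0.87 with harmine. This sum was 0.222 to 0.344 CPM with DMSO and 1.13 to 2.34 with INDY, mostly CD14 (up to 2.26), with CD3E at 0 in 12 libraries. The sum over the 5 epithelial markers was 612 to 645 CPM with water, 595 to 607 with harmine, 568 to 588 with DMSO and 629 to 672 with INDY. The part of these markers in the results was not tested, and in bulk RNA fewer cells of a type cannot be told apart from less RNA per cell. Water replicates 1 and 4 stood apart from replicates 2 and 3, and INDY replicates 1 and 3 from replicates 2 and 4, in the levels of several of the 6 genes. Some effects, though not those of every gene with such a split, are therefore also given without these replicates. These pairs were picked after the values were seen.

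TXNIP fell with INDY and not detectably with harmine. In the DMSO libraries, replicates 1 to 4, it stood at 41.5, 71.1, 71.8 and 73.7 CPM, and in the INDY libraries at 13.9, 24.9, 13.4 and 23.8 CPM. Every INDY library thus lay below every DMSO library, and the mean went from 64.5 ± 15.4 to 19.0 ± 6.22 CPM (SD, n = 4 each). The log2 fold change was -1.77 (SE 0.26, 95% interval -2.30 to -1.23, adjusted p = 4.51e-06 by edgeR's quasi-likelihood test), a 3.40-fold lower level. It was -1.93 without DMSO replicate 1, the lowest control, and between -1.39 (INDY replicates 1 and 3 left out) and -2.23 (INDY replicates 2 and 4 left out), with adjusted p of 0.000271 and 3.16e-06. With all genes ordered by their INDY effect from the most negative up, TXNIP stood at percentile 4.26. Since its level ran closely with that of ARRDC4, whose DMSO libraries entered the choice of that gene, the INDY test of TXNIP is not fully independent of the choice.

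With water, TXNIP was at 19.1, 35.1, 37.0 and 15.2 CPM, and with harmine at 23.2, 22.7, 21.7 and 24.1 CPM. The harmine libraries sat close together in the middle of the range of the water libraries, which split into a low pair and a high pair. Means were 26.6 ± 11.1 and 22.9 ± 1.01 CPM (SD, n = 4 each), a coefficient of variation of 41.6% with water against 4.42% with harmine. The log2 fold change of -0.22 (SE 0.26, 95% interval -0.76 to 0.31, adjusted p = 0.472) did not pass the threshold of 0.01, and its interval holds changes of either sign. Its direction rested on the water libraries: it was -0.65 without replicates 1 and 4 (adjusted p = 0.0232) and 0.41 without replicates 2 and 3 (adjusted p = 0.187). Water replicates 2 and 3 were also the deepest of their group, with 63409340 and 65889667 counts against 50376843 and 56390192, and the part of depth in the split was not tested.

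ARRDC4, which like TXNIP is known to lower glucose uptake, showed the same arrangement. It was at 23.0, 35.3, 35.1 and 39.2 CPM with DMSO and at 9.46, 11.7, 8.86 and 12.0 CPM with INDY. No INDY library reached the lowest DMSO library. In the water libraries it was at 13.9, 20.8, 19.9 and 12.3 CPM, and in the harmine libraries at 14.6, 14.6, 14.3 and 15.8 CPM. The high pair with water was again replicates 2 and 3, and the harmine libraries again lay inside the range of the water libraries. Group means were 33.1 ± 6.99 CPM with DMSO, 10.5 ± 1.59 with INDY, 16.7 ± 4.26 with water and 14.8 ± 0.69 with harmine (SD, n = 4 each). The INDY effect was -1.66 on the log2 scale (SE 0.17, 95% interval -2.00 to -1.31, a 3.15-fold lower level) and the harmine effect -0.18 (SE 0.16, 95% interval -0.52 to 0.16), neither of them tested because control libraries entered the choice of this gene. Without water replicates 2 and 3 the harmine effect was 0.16.

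**Figure D1:**
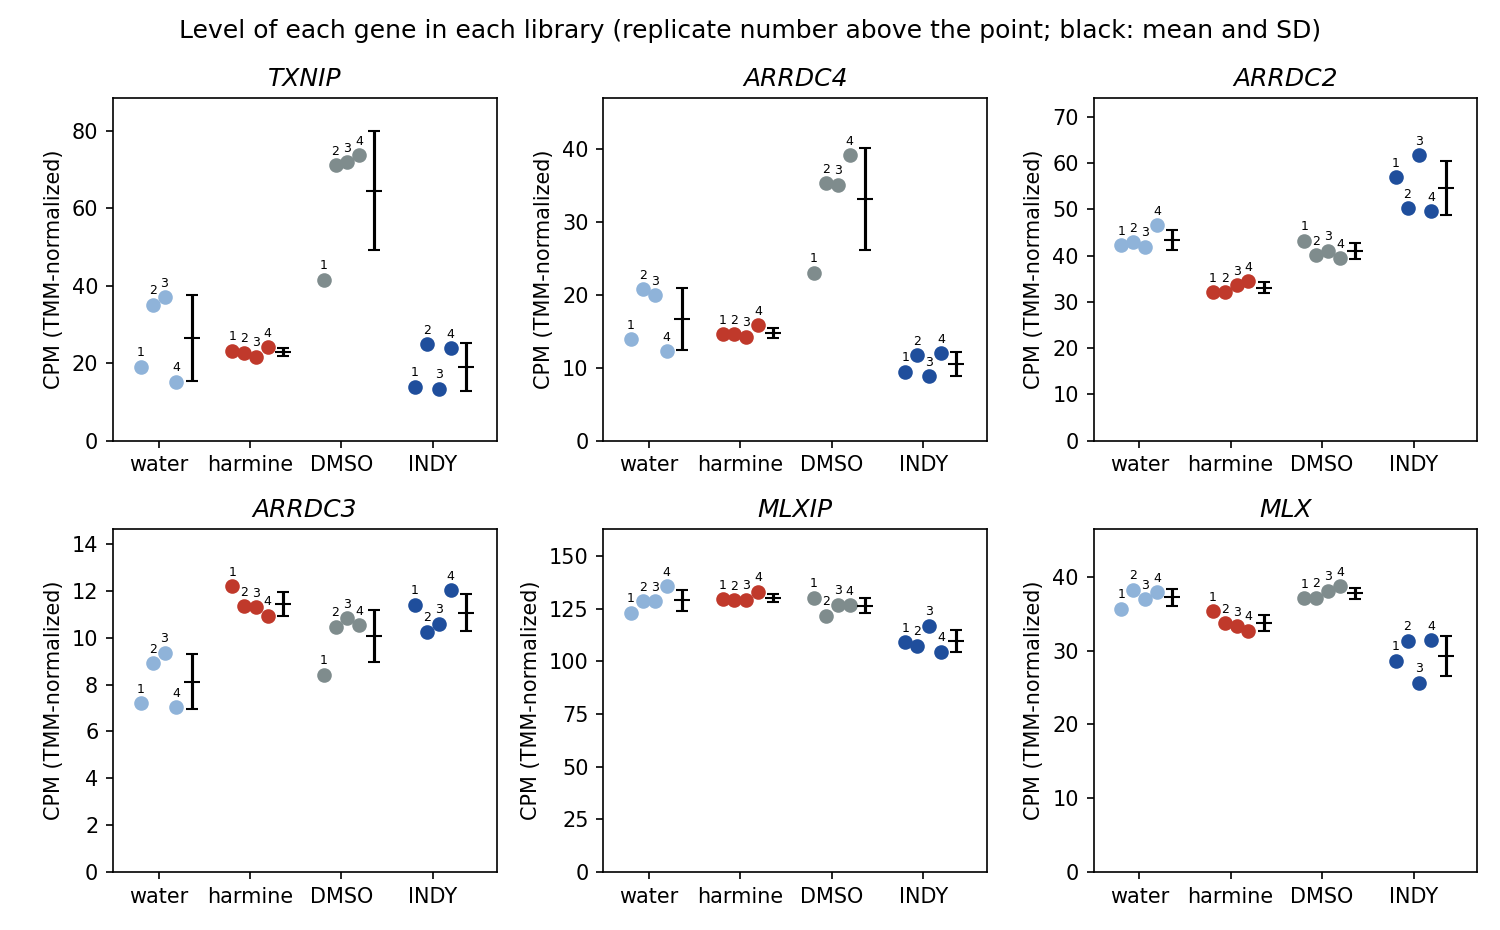
TMM-normalized CPM (y axis, from 0, a separate scale for each gene) of the 6 genes in the 4 libraries of each group (x axis). Each point is a library with its replicate number above it, and black bars are the mean and SD of the group. TXNIP in DMSO replicates 2 to 4 lies at 71.1 to 73.7 CPM, above every other library, and ARRDC4 has the same order of groups.

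Between the vehicle groups, TXNIP and ARRDC4 were the genes of the 6 whose libraries did not overlap, where 19.9% of all genes tested did not. Nothing is read from this count, since the same libraries chose ARRDC4. All 4 DMSO libraries were above all 4 water libraries, from 41.5 against at most 37.0 CPM for TXNIP and from 23.0 against at most 20.8 CPM for ARRDC4. The log2 fold change of DMSO against water was 1.27 for TXNIP (2.41-fold) and 0.98 for ARRDC4 (1.97-fold), the difference by which ARRDC4 was picked. ARRDC3 was at 0.30, ARRDC2 at -0.08, MLXIP at -0.03 and MLX at 0.02, all with overlapping libraries. Over the whole fit, 4.29% of the genes tested passed for DMSO against water in either direction, from which nothing is read about these genes. That count is unstable: 323 genes passed as higher and 554 as lower, but 15 and 106 without water replicates 1 and 4, and 667 and 941 without replicates 2 and 3. Leaving out 1 library (water replicate 1 or 4, or DMSO replicate 2, 3 or 4) took the counts to between 88 and 99 higher and between 237 and 273 lower. Without water replicates 1 and 4 the TXNIP difference was 0.84 and the ARRDC4 difference 0.70, and without replicates 2 and 3 they were 1.91 and 1.34.

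Across all 16 libraries, ARRDC4 was the gene most like TXNIP among 13178 genes searched, with a Pearson r of log2 CPM of 0.972. DHRS2 (0.967), MANEAL (0.964), HMGN2 (0.961) and ACBD7 (0.954) followed. For ARRDC4 the order was MANEAL (0.980), TXNIP (0.972), SNHG16 (0.971), PIK3C2B (0.960) and CAMK2N2 (0.958). After the group means were taken out, TXNIP and ARRDC4 still varied together from library to library (r = 0.963, 16 libraries). These values are descriptive, since libraries of a group share their treatment and the genes of a library share its depth. Replicates also differed beyond these genes. Over the tested genes, the mean chi-square per gene was 2.16 between water replicates 2 and 3, but 14.8 and 15.3 between these and replicate 4. It was 3.77 between INDY replicates 2 and 4, but 27 and 22.8 between these and replicate 3. INDY replicate 1 did not pair with replicate 3, at 10.4, 10.5 and 9.24 from replicates 2, 3 and 4. Water replicate 1 was at 7.52, 7.92 and 5.58 from replicates 2, 3 and 4. Over all genes, INDY replicates 1 and 3 thus did not form a pair, and their split is one of the genes followed here. Whether the within-group r values are particular to these genes was not tested.

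**Figure D2:**
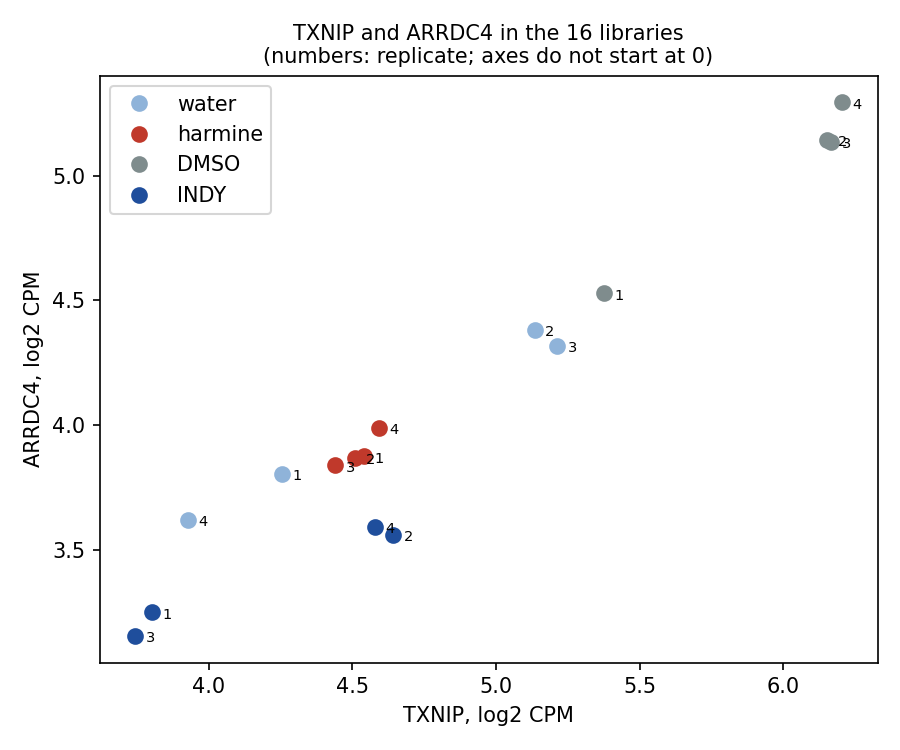
Log2 CPM of TXNIP (x axis) against log2 CPM of ARRDC4 (y axis) in the 16 libraries, coloured by group and numbered by replicate; the axes do not start at 0. The libraries follow 1 line from INDY replicates 1 and 3 at the lower left to DMSO replicates 2 to 4 at the upper right (r = 0.972), with INDY replicates 2 and 4 lying somewhat below it.

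Per kilobase of the reference transcript, which allows genes to be compared, ARRDC4 was the lower of the pair in every library. It amounted to 33.7% (INDY replicate 2) to 57.6% (water replicate 4) of the TXNIP level per kb. With harmine this share was 45.0 to 47.1% and with DMSO 35.0 to 39.7%. It spread more widely with water (38.4 to 57.6%), where it was higher in the low pair of libraries, replicates 1 and 4, than in the high pair.

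ARRDC2 moved in opposite directions with the 2 compounds. This gene encodes an alpha-arrestin that, like its relatives, recruits NEDD4-family ligases. With water it was at 42.3, 42.9, 42.0 and 46.5 CPM, and with harmine at 32.2, 32.1, 33.6 and 34.5 CPM. Every harmine library was lower than every water library, with means of 33.1 ± 1.15 and 43.4 ± 2.11 CPM (SD, n = 4 each) and a log2 fold change of -0.39 (SE 0.06, 95% interval -0.52 to -0.27, adjusted p = 1.49e-05). With DMSO it was at 43.3, 40.2, 41.1 and 39.5 CPM, and with INDY at 56.9, 50.3, 61.8 and 49.7 CPM. Here every treated library was higher than every control, with means of 54.7 ± 5.76 and 41.0 ± 1.65 CPM and a log2 fold change of 0.41 (SE 0.06, 95% interval 0.29 to 0.54, adjusted p = 3.07e-06). INDY replicates 1 and 3, in which TXNIP was lowest, held the highest ARRDC2 levels, and within groups the deviations of the 2 genes had r = -0.740. The genes most like ARRDC2 across the libraries were SLC35C1 (r = 0.988), LTBR (0.986), WDR26 (0.986), DNAJB2 (0.986) and DCAF5 (0.985).

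ARRDC3, an alpha-arrestin that drives degradation of the integrin ITGB4 and of the beta2-adrenergic receptor, rose with harmine. It was at 7.21, 8.92, 9.36 and 7.05 CPM with water and at 12.2, 11.3, 11.3 and 11.0 CPM with harmine. The libraries of the 2 groups did not overlap, the means were 8.13 ± 1.18 and 11.4 ± 0.53 CPM (SD, n = 4 each), and the log2 fold change was 0.49 (SE 0.09, 95% interval 0.29 to 0.68, adjusted p = 0.000182). The change was in the opposite direction to that of ARRDC2. With DMSO it stood at 8.43, 10.5, 10.9 and 10.6 CPM and with INDY at 11.4, 10.3, 10.6 and 12.0 CPM. These libraries overlapped, and the log2 fold change of 0.14 (SE 0.09, 95% interval -0.06 to 0.33, adjusted p = 0.186) did not pass. Treated means were close, at 11.4 CPM with harmine and 11.1 ± 0.79 with INDY. The controls stood further apart, at 8.13 CPM with water and 10.1 ± 1.11 with DMSO. The part of this gap between controls in the 2 calls was not tested. With 1 water library left out, the harmine log2 fold change was between 0.42 (replicate 4) and 0.55 (replicate 3). ARRDC3 was low in the same water libraries as TXNIP, replicates 1 and 4, and in DMSO replicate 1, and its within-group deviations had r = 0.758 with TXNIP and 0.815 with ARRDC4. Over all libraries, by contrast, its r with TXNIP was 0.087. Its closest genes were FAM155A (r = 0.930), TOP2A (0.916), IPP (0.916), RELL1 (0.915) and HMGB2 (0.915), of which TOP2A encodes the DNA topoisomerase of dividing cells.

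MLXIP and MLX, the sensor and its partner, were both lower with INDY. MLXIP was at 130, 122, 127 and 127 CPM with DMSO and at 109, 107, 117 and 105 CPM with INDY. Every INDY library was below every DMSO library, the means were 126 ± 3.54 and 109.5 ± 5.30 CPM (SD, n = 4 each), and the log2 fold change was -0.21 (SE 0.04, 95% interval -0.28 to -0.13, adjusted p = 3.9e-05). MLX was at 37.1, 37.2, 38.1 and 38.7 CPM with DMSO and at 28.6, 31.3, 25.7 and 31.4 CPM with INDY. Its libraries did not overlap either, and the means of 37.8 ± 0.79 and 29.3 ± 2.71 CPM gave a log2 fold change of -0.37 (SE 0.05, 95% interval -0.48 to -0.26, adjusted p = 2.56e-06). Both changes are small beside that of TXNIP. The lowest MLX levels were in INDY replicates 1 and 3, and without them its log2 fold change was -0.26 (adjusted p = 1.33e-05).

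With harmine neither partner passed the threshold. MLXIP was at 123, 129, 129 and 136 CPM with water and at 129.5, 129, 129 and 133 CPM with harmine, so the 2 groups overlapped entirely. Its log2 fold change was 0.01 (SE 0.04, 95% interval -0.06 to 0.09, adjusted p = 0.76), and the sign turned with the scaling (-0.03 with library totals only). MLX was at 35.7, 38.3, 37.0 and 38.0 CPM with water and at 35.3, 33.7, 33.3 and 32.7 CPM with harmine. All 4 harmine libraries were below all 4 water libraries, by a log2 fold change of -0.14 (SE 0.05, 95% interval -0.25 to -0.04), but the adjusted p of 0.0228 missed the threshold. It passed with library totals only (0.00417), with no filter (0.00871), with only the 2 groups (0.0018) and with DESeq2 (0.00847).

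Of the 5 genes tested, harmine thus raised ARRDC3 and lowered ARRDC2, whereas 24.9% of all genes tested were higher and 22.8% lower. INDY raised ARRDC2 and lowered TXNIP, MLXIP and MLX, where 33.2% of all genes were higher and 33.4% lower. Libraries of treated and control cells did not overlap for 3 of the 6 genes with harmine (ARRDC2, ARRDC3 and MLX), against 55.1% of all genes. With INDY they did not overlap for 5 of the 6, all but ARRDC3, against 67.5% of all genes. With so many genes of the table passing, these counts say little about the 6 genes as a group.

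**Figure D3:**
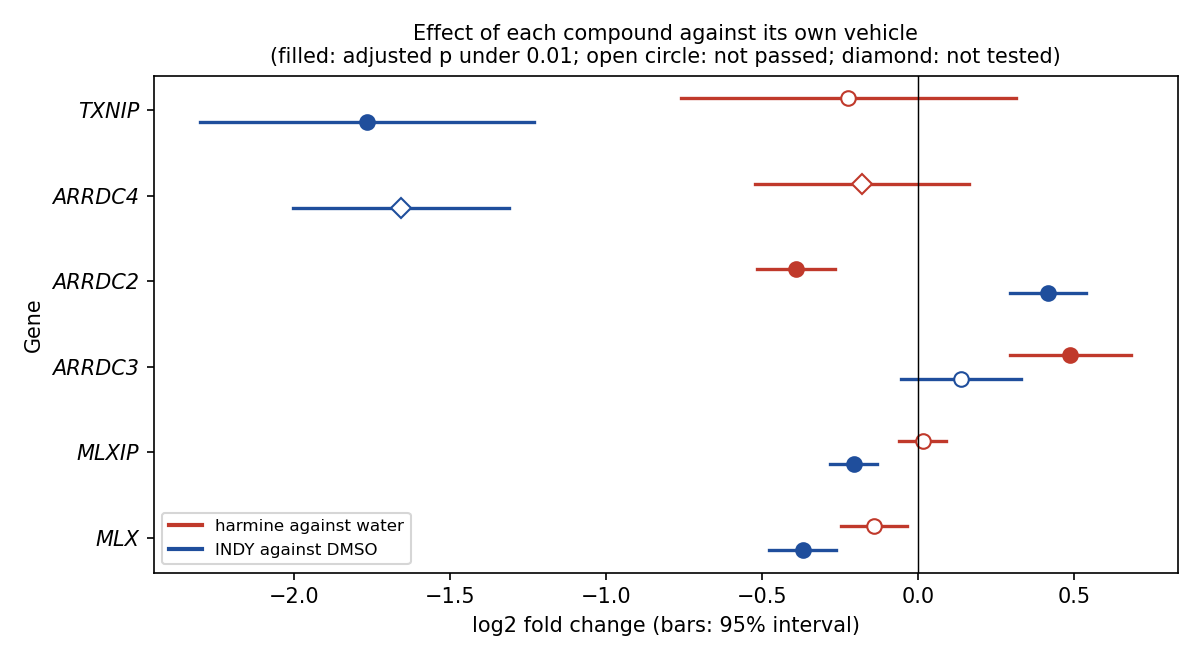
Log2 fold change (x axis) of each of the 6 genes (y axis) with harmine against water (red) and with INDY against DMSO (blue). Bars are 95% intervals, filled circles passed an adjusted p of 0.01, open circles did not and diamonds were not tested. TXNIP and ARRDC4 lie near -1.77 and -1.66 with INDY, whereas their harmine intervals hold 0, and ARRDC2 lies on opposite sides of 0.

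The effect of INDY was then set against that of harmine in one model. The treatments differ in dose (25 and 10 µM) and vehicle, so the contrast compares these treatments and not the compounds at a matched dose. TXNIP was the more strongly lowered by INDY, with a difference of -1.54 on the log2 scale (SE 0.36, 95% interval -2.30 to -0.79, adjusted p = 0.00102). This difference was -1.12 without water replicates 1 and 4 (adjusted p = 0.004), -2.17 without water replicates 2 and 3 and -1.15 without INDY replicates 1 and 3, where it no longer passed (adjusted p = 0.0105). ARRDC2 had a difference of 0.81 (SE 0.08, 95% interval 0.63 to 0.98, adjusted p = 1.11e-07), from a fall with harmine and a rise with INDY. MLXIP (-0.22, SE 0.05, adjusted p = 0.000876) and MLX (-0.23, SE 0.07, adjusted p = 0.00931) passed with small differences. The MLX call was lost in 14 of the 16 fits that left out 1 library, all but those without INDY replicate 2 or 4, and without INDY replicate 3 its difference was -0.15. ARRDC3 did not pass (-0.35, SE 0.13, 95% interval -0.63 to -0.08, adjusted p = 0.0251), and it did without water replicate 3 (-0.41) or DMSO replicate 1 (-0.43). ARRDC4, untested, was at -1.48 (SE 0.23). Of all genes tested, 26.4% had an INDY effect above and 28.1% below the harmine effect, so ARRDC2 on one side and TXNIP, MLXIP and MLX on the other stand beside a large share of the table. For TXNIP the control groups themselves stood 1.27 apart on the log2 scale, DMSO above water, whereas the harmine libraries (21.7 to 24.1 CPM) lay within the range of the INDY libraries (13.4 to 24.9 CPM). The test of the difference for TXNIP is therefore also not fully independent of the choice of ARRDC4.

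Levels per kilobase put the genes in a different order from their CPM. This order rests on the reference transcript of each gene. For ARRDC2 that transcript has 2501 nt, and the longest annotated one has 3748 nt. With the longest transcripts ARRDC2 lies below MLX and MLXIP in water libraries. With water the highest means were those of ARRDC2 (17.4 ± 0.85 CPM per kb, SD, n = 4), MLX (15.8 ± 0.49) and MLXIP (15.4 ± 0.62), of which MLX and MLXIP did not differ beyond their spread. TXNIP (9.15 ± 3.81), ARRDC4 (4.12 ± 1.05) and ARRDC3 (1.92 ± 0.28) followed. In DMSO libraries TXNIP had the highest mean level of the 6 per kb (22.2 ± 5.30). Its replicate 1, at 14.3, lay below the DMSO libraries of ARRDC2 (15.8 to 17.3), MLX (15.7 to 16.4) and MLXIP (14.5 to 15.5). With the longest ARRDC2 transcript the ARRDC2 libraries, and not those of MLX or MLXIP, lie below it instead. In INDY libraries ARRDC2 was highest (21.9 ± 2.30) and TXNIP had dropped to 6.55 ± 2.14 CPM per kb. ARRDC3 and ARRDC4 were then level, at 2.61 ± 0.19 and 2.59 ± 0.39 CPM per kb. Taken gene by gene, the order of the 4 groups for TXNIP and for ARRDC4 was DMSO, water, harmine and INDY, in which DMSO stood clear of all other libraries for both genes and water and harmine overlapped. The INDY libraries overlapped those groups for TXNIP and lay below them for ARRDC4. For ARRDC2 the order was INDY, water, DMSO and harmine with water and DMSO overlapping, and for ARRDC3 it was harmine, INDY, DMSO and water with each neighbouring pair overlapping. MLXIP (harmine, water, DMSO, INDY) and MLX (DMSO, water, harmine, INDY) had INDY as the lowest group, clear of the rest.

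The genes around these 6 were counted in 8 lists of known roles, each count given beside the share of all genes tested. Among the other arrestins, ARRB1, which encodes beta-arrestin 1, fell with both compounds: from 36.2 ± 4.56 to 18.9 ± 0.60 CPM with harmine (log2 fold change -0.94, SE 0.07, adjusted p = 1.53e-09) and from 30.8 ± 0.85 to 20.1 ± 1.37 CPM with INDY (-0.61, SE 0.07, adjusted p = 1.71e-07). ARRB2, beta-arrestin 2, fell with INDY from 42.3 ± 0.87 to 29.0 ± 3.79 CPM (-0.55, SE 0.07). The 6 arrestins counted without ARRDC4 include TXNIP, ARRDC2 and ARRDC3, whose calls are given above. Of these 6, 1 was higher, 2 were lower and 3 passed neither way with harmine (24.9% and 22.8% of all genes higher and lower), and 1, 4 and 1 with INDY (33.2% and 33.4% of all genes). Their median log2 fold change was -0.16 with harmine and -0.50 with INDY, beside 0.02 and -0.01 over all genes. ARRDC5 had at most 3 counts in a library and was not tested.

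The next list held genes known to carry carbohydrate response elements or to answer MondoA and its relative ChREBP. Of 10 counted, which include TXNIP, 7 were lower with INDY, beside 33.4% of all genes, and 1 was higher, beside 33.2%, the latter being PFKFB3 (0.10), named after its value was seen, whose call was lost under 11 of 19 alternatives. FASN, fatty acid synthase, went from 811 ± 6.60 to 521 ± 18.0 CPM (log2 fold change -0.64, SE 0.03, adjusted p = 1.88e-12), and KHK, the fructose kinase, from 11.0 ± 0.86 to 5.74 ± 1.15 CPM (-0.94, SE 0.11, adjusted p = 3.05e-07). The median was -0.50. With harmine 2 were higher, 5 lower and 3 neither (median -0.18), beside 24.9% and 22.8% of all genes higher and lower. SCD, the desaturase that makes monounsaturated fatty acids, rose from 1050 ± 19.9 to 1640 ± 24.1 CPM (0.64, SE 0.04, adjusted p = 2.35e-10) and ACACA, acetyl-CoA carboxylase, rose by 0.34 (SE 0.06, adjusted p = 5.53e-05), while HK2, hexokinase 2, fell from 54.7 ± 5.97 to 38.7 ± 0.61 CPM (-0.50, SE 0.08, adjusted p = 5.07e-05). These lipid and sugar genes also have regulators other than MondoA. For the difference between the compounds, 3 of the 10 had the higher effect with INDY and 6 the lower (26.4% and 28.1% of all genes), but 1 and 6 without water replicates 2 and 3. PKLR had at most 6 counts in a library and was not tested, and G6PC1 was not analysed here.

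In the network of MondoA, MLX and the MAX partners, no direction prevailed. Of 12 counted, 3 were higher and 2 lower with harmine (median 0.01, beside 24.9% and 22.8% of all genes higher and lower) and 3 were higher and 4 lower with INDY (median 0.06, beside 33.2% and 33.4%). MXD1, a repressor that competes with MYC for MAX and can also pair with MLX, rose with INDY from 10.2 ± 0.70 to 17.8 ± 3.69 CPM (0.80, SE 0.11, adjusted p = 2.4e-06). MGA, another MAX partner, rose by 0.47 (SE 0.04). MYCL rose with harmine (0.67, SE 0.17, adjusted p = 0.0022) and fell with INDY (-0.62, SE 0.17, adjusted p = 0.00307), from 1.97 and 2.89 CPM. MXD3 rose with harmine by 0.50 (SE 0.08), and MYCN by 1.33 (SE 0.33, adjusted p = 0.00218) at a low level, 0.16 to 0.40 CPM. The larger direction turned without harmine replicate 3 (1 higher and 2 lower with harmine) and, with INDY, without INDY replicate 1 (3 higher and 2 lower) and without INDY replicates 1 and 3 (4 higher and 3 lower). MLXIPL, which encodes ChREBP, had at most 9 counts in a library and was not tested.

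The thioredoxin system, to which TXNIP binds, gave 6 higher and 5 lower of 16 genes with harmine (median 0.02), a balance that turned under 6 of 19 alternatives, and 1 higher and 7 lower with INDY (median -0.12). Of all genes, 24.9% and 22.8% were higher and lower with harmine, and 33.2% and 33.4% with INDY. TXNRD2, the mitochondrial thioredoxin reductase, rose with harmine from 48.5 ± 2.39 to 69.1 ± 2.20 CPM (0.51, SE 0.07) and fell with INDY from 43.6 ± 1.96 to 27.8 ± 3.86 CPM (-0.65, SE 0.07). MSRB2, a methionine sulfoxide reductase of mitochondria, likewise rose with harmine (0.59, SE 0.12) and fell with INDY (-1.21, SE 0.13). TXNRD3 rose with harmine by 0.75 (SE 0.11), and MSRB3 rose with INDY by 0.46 (SE 0.04).

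Glucose carriers and the enzymes that handle the first hexose phosphates, which lie before the sensor, changed in both directions. With harmine 3 of 18 were higher and 9 lower (median -0.23, beside 24.9% and 22.8% of all genes), and with INDY 6 were higher and 8 lower (median -0.07), beside 33.2% and 33.4% of all genes. SLC2A3, the carrier GLUT3, fell with harmine from 288 ± 7.19 to 187 ± 6.08 CPM (-0.62, SE 0.04, adjusted p = 3.47e-10), and GFPT2, which diverts fructose 6-phosphate to hexosamines, fell from 59.9 ± 4.41 to 23.5 ± 0.98 CPM (-1.35, SE 0.09, adjusted p = 7.92e-10). SLC2A10 rose with harmine by 0.80 (SE 0.05). PGM1, phosphoglucomutase 1, rose with INDY from 70.6 ± 3.39 to 190 ± 13.2 CPM (1.43, SE 0.06, adjusted p = 1.98e-13). HKDC1, a hexokinase-like gene, fell with INDY from 4.65 ± 0.54 to 0.59 ± 0.24 CPM (-2.98, SE 0.16). HK3 was at 0.088 ± 0.035 CPM with DMSO and 0.55 ± 0.052 with INDY, but it met the filter's minimum in the 4 INDY libraries only, so that it could be tested only by being high there, and without it 5 of 17 were higher with INDY.

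For the ligases and cargo with which alpha-arrestins work, calls were again mixed. Of 11 NEDD4-family ligases and adaptors, 3 were higher and 4 lower with harmine, and 4 and 4 with INDY, with medians of -0.08 and 0.02. The shares of all genes were 24.9% and 22.8% for harmine and 33.2% and 33.4% for INDY. NEDD4L rose with harmine from 158 ± 6.32 to 220 ± 3.40 CPM (0.48, SE 0.04), while HECW2 (-0.76, SE 0.05) and the adaptor NDFIP2 (-0.46, SE 0.04) fell. With INDY, WWP2 fell from 68.0 ± 1.63 to 41.6 ± 1.73 CPM (-0.71, SE 0.03) and HECW1 by 1.04 (SE 0.10), and the adaptor NDFIP1 rose by 0.39 (SE 0.04). Among 12 partners and cargo, 3 were higher and 2 lower with harmine (median -0.02), an order that turned under 2 of 19 alternatives, and 2 were higher and 5 lower with INDY (median -0.21), with the same shares of all genes beside them. ITGB4, the integrin that ARRDC3 is known to remove, rose with harmine from 8.02 ± 0.30 to 12.9 ± 1.1 CPM (0.69, SE 0.08, adjusted p = 7.55e-07) and fell with INDY from 7.84 ± 0.78 to 3.90 ± 0.45 CPM (-1.01, SE 0.09, adjusted p = 6.54e-09). SLC2A4, the carrier GLUT4 whose endocytosis TXNIP promotes, fell with INDY from 12.0 ± 1.13 to 5.17 ± 0.73 CPM (-1.22, SE 0.08, adjusted p = 1.47e-10). With harmine NLRP3, an inflammasome sensor that TXNIP can bind, fell (-0.61, SE 0.15, adjusted p = 0.00151) and DDIT4, a TXNIP-bound inhibitor of mTORC1, rose (0.51, SE 0.12, adjusted p = 0.00124).

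AMPK, the energy-sensing kinase that marks TXNIP for degradation, had 3 subunit genes that rose with INDY as its largest called changes. PRKAB2 went from 55.8 ± 0.87 to 110 ± 5.49 CPM (0.99, SE 0.04, adjusted p = 4.63e-14), PRKAB1 from 26.7 ± 0.69 to 42.4 ± 1.68 CPM (0.67, SE 0.04) and PRKAA2 from 14.7 ± 0.71 to 23.9 ± 2.62 CPM (0.70, SE 0.07). Counting 8 subunits and upstream kinases, 5 were higher and 3 lower with INDY (median 0.23, beside 33.2% and 33.4% of all genes). With harmine 5 were higher and 1 was lower (median 0.13, beside 24.9% and 22.8% of all genes), among them PRKAB1 (0.29, SE 0.04), CAMKK2 (0.33, SE 0.07) and, in the lower direction, PRKAG2 (-0.65, SE 0.09). The harmine count of 5 dropped to 3 with library totals only, with no filter, and when water replicate 2 or 3 or harmine replicate 2, 3 or 4 was left out, to 3 also without water replicates 2 and 3, and to 1 without water replicates 1 and 4. PRKAG3 had at most 5 counts in a library and was not tested.

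**Figure D4:**
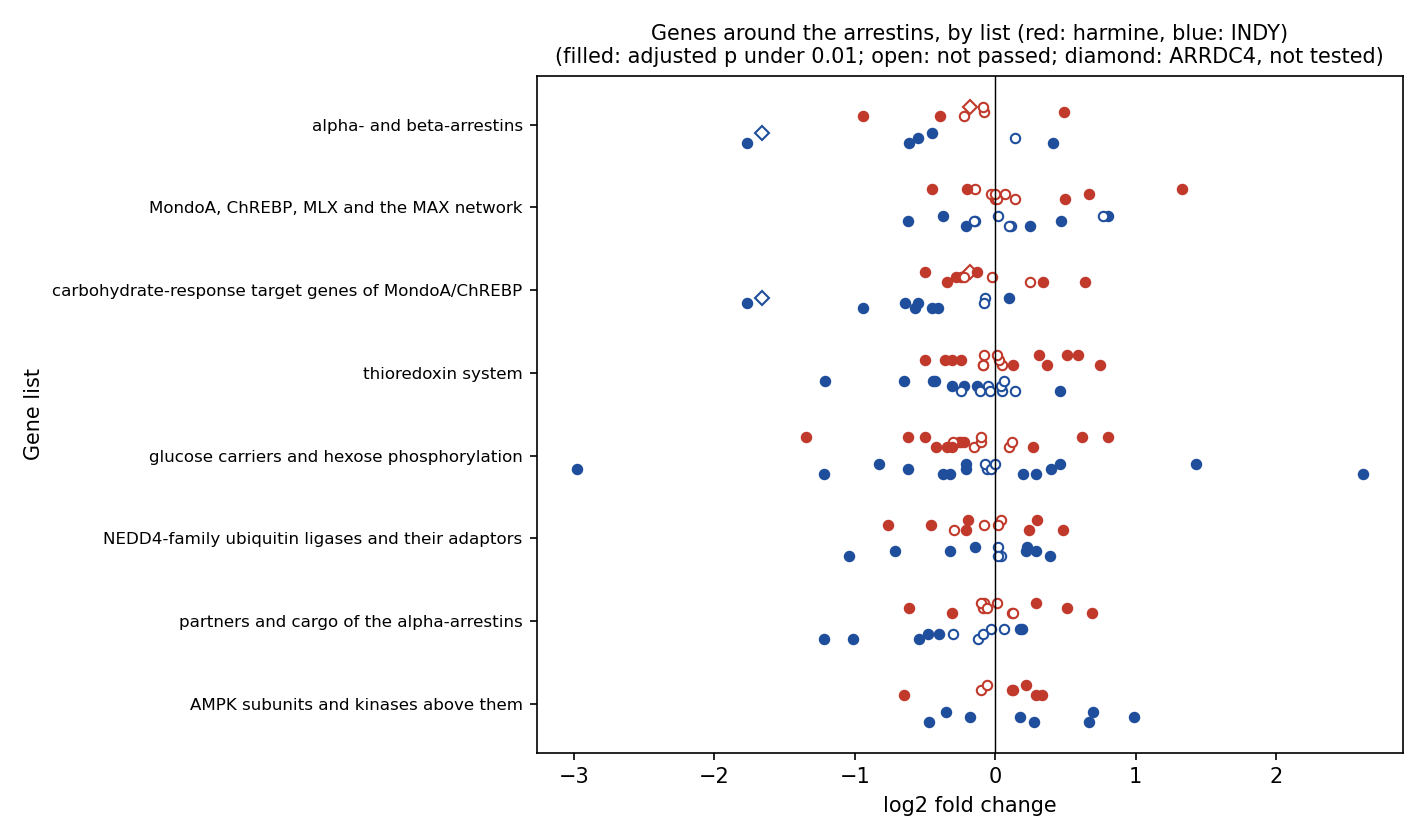
Log2 fold change (x axis) of every tested gene of the 8 lists (y axis), with harmine against water in red and INDY against DMSO in blue. Filled points passed an adjusted p of 0.01, open points did not and diamonds are ARRDC4, which was not tested. In the list of carbohydrate-response targets 7 of 10 counted genes lie below 0 as filled blue points and 1 above. Of all genes tested, 33.4% were lower and 33.2% higher with INDY. Every list has filled points on both sides of 0.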

How the data were processed

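Poly(A)-selected, stranded libraries were made from U2OS cells. The authors assigned reads to GENCODE transcripts with Salmon 1.1 (GRCh38), summed them to genes with tximport and deposited estimated counts per gene. Per the submitters' processing notes, they tested with edgeR 3.28.1.

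Estimated counts were rounded. The filter filterByExpr kept 20446 of 59081 genes, and TMM factors (0.982 to 1.022) set CPM. One edgeR 4.0.16 quasi-likelihood model (R 4.3.3) of the 4 groups gave 4 comparisons, p values adjusted by Benjamini and Hochberg's method across the tested genes, and a threshold of 0.01. Groups came from the sample labels. Log2 CPM used a prior count of 2. The fitting code was tested on simulated data.

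The 6 genes and the 8 gene lists were chosen with earlier results of these data known. From each list, the 3 largest called changes per compound are named, with every list gene under the filter, and the 5 genes most correlated with each arrestin (mean log2 CPM of at least 1, clone-based names left out). Some genes that this rule names are not reported here. No 2 replicates were identical. A planned protein comparison was not run. Alternatives were DESeq2 1.42.0, limma voom (limma 3.58.1), other scalings, filters and thresholds, a replicate block and left-out libraries.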

Additional observations from a re-analysis of the deposited data

Results flagged for a closer look

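In 3 of the 24 combinations of gene and group examined, 1 library lay far from the other 3 relative to the range of its group. Chance alone marks about 1 in 20 of such combinations. The 24 are not independent, since the genes share libraries, so this rate is no test of the count of 3. TXNIP was at 41.49 CPM in DMSO replicate 1, with a gap to the next library of 0.921 of the group's range. ARRDC3 was at 8.43 CPM in the same library, with a gap of 0.847. MLXIP was at 133.1 CPM in harmine replicate 4, with a gap of 0.884, in a group that spanned only 129 to 133.1 CPM.

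For 4 genes the effect of INDY differed from that of harmine by the test of the difference itself (edgeR, adjusted p under 0.01). The difference, INDY minus harmine on the log2 scale, was -1.543 for TXNIP, 0.807 for ARRDC2, -0.22 for MLXIP and -0.229 for MLX. ARRDC2 fell with harmine and rose with INDY without overlap of treated and control libraries, while the other 3 had passed the test with INDY and not with harmine. For TXNIP the control groups themselves stood 1.27 apart on the log2 scale, DMSO above water. Its level ran closely with that of ARRDC4, which was chosen by these control libraries, so its test is not fully independent of the choice.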

How the results depend on the processing

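In the INDY comparison every alternative (114 values of the 6 genes) kept its direction and, for the 5 genes tested, its side of the threshold. With harmine, 10 values turned sign. MLXIP had a log2 fold change of -0.002 with upper-quartile factors, -0.032 with library totals only, -0.006 with no filter, -0.007 without water replicates 2 and 3, and -0.01 to 0.038 when 1 library was left out. Without water replicates 2 and 3, TXNIP was at 0.406 and ARRDC4 at 0.164. MLX passed with harmine at an adjusted p under 0.05 (-0.141), with library totals only (-0.187), no filter (-0.161), only the 2 groups compared (-0.154) and DESeq2 (-0.151).

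For the difference between the compounds, ARRDC3 passed at an adjusted p under 0.05 (-0.35) and without water replicates 2 and 3 (-0.528), and leaving out 1 library gave -0.431 to -0.288. MLX no longer passed with library totals only (-0.21), without water replicates 1 and 4 (-0.218), without water replicates 2 and 3 (-0.227) or without INDY replicates 1 and 3 (-0.107), and leaving out 1 library gave -0.244 to -0.151. TXNIP no longer passed without INDY replicates 1 and 3 (-1.151), nor MLXIP without INDY replicates 2 and 4 (-0.153), and ARRDC4 moved to -1.819 without water replicates 2 and 3. Left-out pairs were chosen after seeing the data, and the causes of these changes were not tested.

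Same-numbered libraries of different groups did not deviate together (r of -0.053 to 0.087, and 2 of 8 correlated best with their own number). The replicate block gave TXNIP -0.181 with harmine, -1.764 with INDY and -1.583 for the difference, and it changed no call of the 6 genes. DESeq2 called 715 genes higher and 877 lower for DMSO against water, beside 323 and 554. Each interval rests on 4 libraries a group, and genes with at most 9 counts in a library could not be tested.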
